A study of Homo sapiens with 6 samples.

Results

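The GALNT genes encode the polypeptide N-acetylgalactosaminyltransferases, the enzymes that start mucin-type O-glycans. Their transcripts were followed here in ES2 cells with and without knockdown of UAP1. The 10 genes GALNT1, GALNT2, GALNT3, GALNT4, GALNT5, GALNT6, GALNT7, GALNT10, GALNT11 and GALNT12 were taken by their names from a gene count table of 58735 genes. All 10 were found there; 8 passed the count filter and were tested, and GALNT3 and GALNT4 were too low to test. In the fit that compares libraries within replicate pairs, GALNT10, GALNT7, GALNT2 and GALNT6 rose and GALNT1 fell. In the fit on the groups alone none of the 8 passed the threshold.

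ES2 is an established human ovarian cancer cell line, which the labels class as high-grade serous carcinoma, and it is the only line studied. The control group is 3 libraries of ES2 cells given a control small interfering RNA (siRNA), and the siUAP1 group is 3 libraries of ES2 cells given siRNA against UAP1, labelled as a UAP1 knockdown. Both groups had the same lipid transfection, and RNA was collected 48 h later. The labels list 2 UAP1 siRNAs and do not give which library had which or if they were mixed. Separate cultures are not stated for the replicates either, so the p-values reflect a spread between libraries that may be technical.

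In the Golgi, a GALNT enzyme moves N-acetylgalactosamine (GalNAc) from UDP-GalNAc onto a serine or threonine of a passing protein. Some members act on bare peptide, and others prefer peptide that already carries GalNAc nearby, which they sense partly through a lectin domain. UAP1 makes UDP-GlcNAc, from which UDP-GalNAc can be formed, so UAP1 lies upstream of the sugar donor that all GALNT enzymes use. The comparison addresses how transcripts of these enzymes differ when UAP1 is knocked down.

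UAP1 was at 345.3, 357.0 and 444.4 CPM (counts divided by the TMM-adjusted total of their library, on a common scale) in control libraries 1 to 3 and at 21.8, 23.3 and 25.2 CPM in siUAP1 libraries 1 to 3. The fall of UAP1 passed the test on the groups alone, with a log2 fold change of -4.03 (edgeR adjusted p = 6.12e-06). Library totals were 21267240 to 25972582 counts, and 15768 genes were tested. Mitochondrial transcripts took 4.23% to 6.02% of the counts. Of 12 serous ovarian marker genes, MUC16, FOLR1 and SOX17 were at 0 in every library. The keratin genes KRT7 and KRT18 averaged 81.7 and 111.4 FPKM in control libraries. All other markers of the list averaged at most 0.588 FPKM there (CLDN4), with PAX8 at 0.136 FPKM.

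Promoter windows are shown for the members whose change within pairs passed the test and for which the reference table held one, because GALNT10, GALNT2 and GALNT7 moved together and GALNT1 moved the other way. RefSeq promoter windows (GRCh38.p14 coordinates, 250 bases before to 50 bases after a transcript start) were matched by symbol for 7 of the 10 members, in 9 windows. None was matched for GALNT4, GALNT5 and GALNT6. Each is printed 5′ to 3′ on the gene's strand, with capitals marking matches on either strand to the GC box, with the letters GGGCGG, to the ETS core, with the letters CCGGAA, or to the CCAAT box.
GALNT10, chr5:154190483-154190782, plus strand: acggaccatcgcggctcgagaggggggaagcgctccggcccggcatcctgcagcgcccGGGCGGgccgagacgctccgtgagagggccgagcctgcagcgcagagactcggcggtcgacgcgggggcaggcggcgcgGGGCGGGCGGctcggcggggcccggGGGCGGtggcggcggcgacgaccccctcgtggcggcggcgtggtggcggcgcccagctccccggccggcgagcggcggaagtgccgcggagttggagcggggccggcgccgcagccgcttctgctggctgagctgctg
GALNT2, chr1:230066988-230067287, plus strand: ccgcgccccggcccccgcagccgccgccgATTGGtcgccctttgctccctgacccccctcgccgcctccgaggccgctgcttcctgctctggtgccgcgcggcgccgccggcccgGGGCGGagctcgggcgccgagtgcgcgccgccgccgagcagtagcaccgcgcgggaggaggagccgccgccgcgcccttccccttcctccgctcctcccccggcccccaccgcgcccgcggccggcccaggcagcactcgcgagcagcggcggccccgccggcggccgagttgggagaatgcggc
GALNT7, chr4:173168561-173168860, plus strand: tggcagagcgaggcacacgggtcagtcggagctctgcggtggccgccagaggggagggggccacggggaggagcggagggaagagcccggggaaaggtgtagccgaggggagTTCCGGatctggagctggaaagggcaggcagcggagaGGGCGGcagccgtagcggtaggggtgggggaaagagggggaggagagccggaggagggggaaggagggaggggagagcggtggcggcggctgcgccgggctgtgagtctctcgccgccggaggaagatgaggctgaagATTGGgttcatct
GALNT1, chr18:35581490-35581789, plus strand: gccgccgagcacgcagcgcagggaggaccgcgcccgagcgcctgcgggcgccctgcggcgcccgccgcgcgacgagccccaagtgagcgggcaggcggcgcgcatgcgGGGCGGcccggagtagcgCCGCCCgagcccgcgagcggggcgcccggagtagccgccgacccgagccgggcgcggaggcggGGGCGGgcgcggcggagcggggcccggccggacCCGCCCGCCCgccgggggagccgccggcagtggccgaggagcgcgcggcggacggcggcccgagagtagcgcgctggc

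The GALNT1 window is the only 1 of its 3 that holds a transcript start of GENCODE release 29. It covers the starts of 1 of 6 annotated GALNT1 transcripts, while the GALNT10 window covers the starts of 5 of 10, the GALNT2 window 2 of 5 and the GALNT7 window 2 of 7. The windows were rich in G and C, at 81.0% for GALNT10, 82.0% for GALNT2, 69.7% for GALNT7 and 86.0% for GALNT1, against a median of 58.7% over 35116 promoters of the same length. The GC box, a short motif bound by the SP family of transcription factors, was found 4 times in the GALNT10 window, 5 times in the GALNT1 window, and 1 time each in the GALNT2 and GALNT7 windows. It is found in 45.0% of all promoter windows. A CCAAT box was found 1 time each in GALNT2 and GALNT7, against 34.6% of all windows, and an ETS core 1 time in GALNT7, against 17.2%. The TATAAA and CACGTG motifs (TATA box and E-box), held by 11.5% and 7.26% of all windows, were not among the letters of these 4. The GC box was present in all 4 of these windows, of members that rose and of the member that fell. Windows of like G and C content were not compared, and any part of the motif in the changes was not tested. GALNT12, which was not called, held 4 GC boxes and 1 ETS core in a window that covers the starts of 1 of 4 annotated transcripts. The only window matched for GALNT11, also not called, held none of these motifs. That window (152074787 to 152075086) lies inside the gene, covers the starts of 1 of 13 annotated transcripts and had 51.3% G and C. The other GALNT11 starts were therefore not read. The GALNT3 window held 2 GC boxes and 1 CCAAT box, and GALNT3 was too low to test. A match is a string of letters, not a measured binding site.

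The transcript levels of the members were compared per length, in FPKM (a count divided by the gene's length and by the depth of its library). GALNT2, a broadly expressed enzyme whose known substrates include PLTP and other proteins of lipid metabolism, had the highest level of the 10, at 29.6 ± 1.07 FPKM in control libraries (SD, n = 3) and 38.2 ± 3.07 FPKM in siUAP1 libraries (SD, n = 3). Of the 15768 genes tested, 90.6% had a lower control level. GALNT1 followed in control libraries at 13.5 ± 0.939 FPKM, GALNT10 at 12.4 ± 2.95 FPKM and GALNT6 at 11.7 ± 0.391 FPKM (SD, n = 3 each). GALNT1 and GALNT6 did not overlap across control libraries, and the range of GALNT10, 9.07 to 14.6 FPKM, covered both. GALNT11 at 5.87 ± 0.873 FPKM, GALNT7 at 5.16 ± 1.09 FPKM and GALNT12 at 4.22 ± 0.530 FPKM came next (SD, n = 3 each), each overlapping its neighbour. GALNT5, GALNT4 and GALNT3 were all under 0.1 FPKM on average in control libraries.

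In siUAP1 libraries the order of FPKM levels was GALNT2, GALNT10, GALNT6, GALNT1, GALNT7, GALNT11 and GALNT12. GALNT1 had rank 2 in control libraries and rank 4 in siUAP1 libraries, at 10.3 ± 0.762 FPKM (SD, n = 3). GALNT10 was at 19.3 ± 2.98 FPKM and GALNT6 at 13.7 ± 0.873 FPKM (SD, n = 3 each). The upper 4 did not overlap with one another in siUAP1 libraries: GALNT1 reached at most 11.1 FPKM, GALNT6 spanned 12.7 to 14.4 FPKM, GALNT10 spanned 16.2 to 22.2 FPKM and GALNT2 was at least 35.5 FPKM. GALNT7 and GALNT11 overlapped, and GALNT12 lay just under both.

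**Figure D1:**
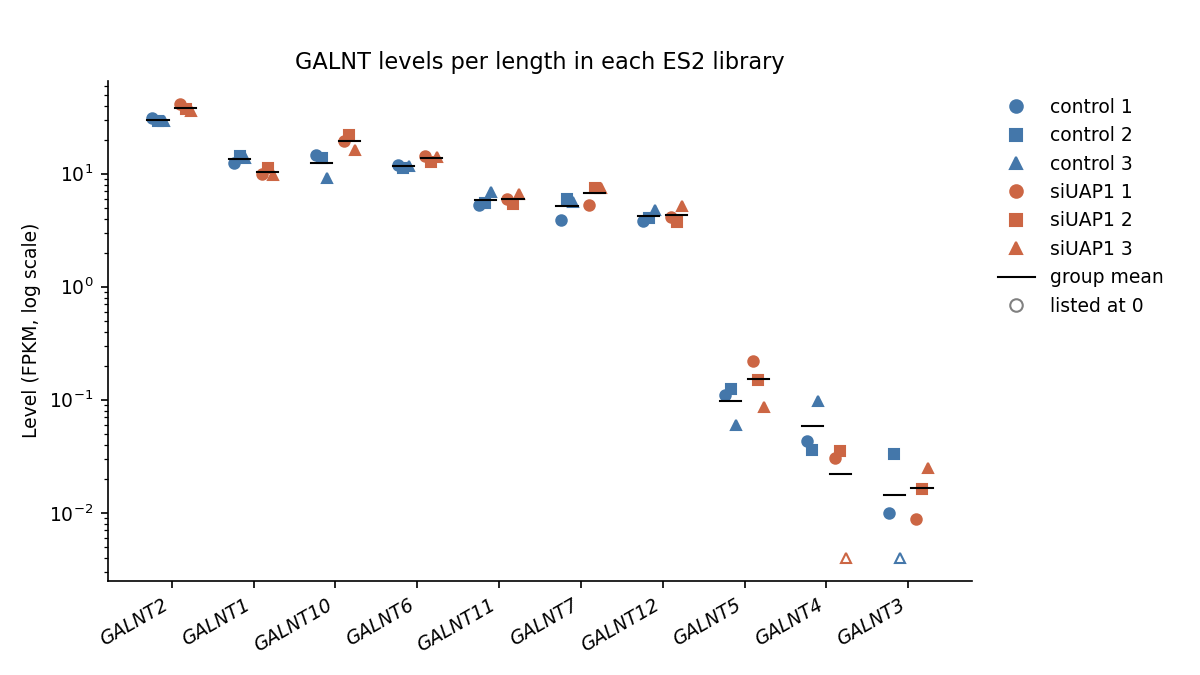
Level of each of the 10 GALNT genes in every library, in FPKM on a log axis, with control libraries in blue, siUAP1 libraries in orange, the replicate number as the marker shape, black lines for group means and open symbols for values listed at 0. GALNT2 was highest in both groups at 29.6 and 38.2 FPKM, and GALNT5, GALNT4 and GALNT3 lay far under the other 7.

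Replicate numbers 1 to 3 mark pairs of 1 control and 1 siUAP1 library that deviated together, so each change is given both from a fit on the groups alone and from a fit within pairs. A gene is called where its edgeR p-value, adjusted over all 15768 genes, is under 0.05. On the groups alone 0 of the 8 tested members were called by edgeR, where 0.108% of all genes were called in either direction. At an unadjusted p under 0.05 there were 4 of 8 (GALNT1, GALNT2, GALNT6 and GALNT10), where 7.13% of all genes passed. DESeq2 on the groups called 1, GALNT10, with an adjusted p of 0.0447. Within pairs 4 of the 8 rose, where 9.07% of all genes rose, and 1 of the 8 fell, where 7.14% of all genes fell. The median log2 fold change of the 8 was 0.30 within pairs, and that of all tested genes was 0.00 (-0.00295). In CPM the groups did not overlap for 3 members that were higher in siUAP1 libraries (GALNT2, GALNT6 and GALNT10), where 6.74% of all genes were so, and for 1 that was lower (GALNT1), where 5.71% were so.

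GALNT7 and GALNT10 are close relatives that prefer peptides already carrying GalNAc, and so act after other members. GALNT10 (ENSG00000164574, GRCh38 chromosome 5, 154190730 to 154420984, plus strand) was at 153.9, 145.6 and 95.7 CPM in control libraries 1 to 3 and at 206.5, 234.5 and 171.8 CPM in siUAP1 libraries 1 to 3. Control library 3 was the lowest of the 6, siUAP1 library 3 was the lowest of its group, and the lowest siUAP1 value was above the highest control value. Within pairs GALNT10 rose 1.57-fold, with a log2 fold change of 0.65 (SE 0.0583, edgeR adjusted p = 9.84e-09) and pair values of 0.42, 0.69 and 0.84. The fit on the groups alone gave 0.63 (SE 0.186), which missed the threshold with an edgeR adjusted p of 0.377. Only 5.68% of tested genes had a larger change within pairs in either direction. The GALNT10 rise was the largest of the called members. Its exons share 121 bases (1.15%) with MFAP3 on the same strand, which averaged 19.2 CPM, so a few of its reads could be counted for either gene.

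GALNT7 (ENSG00000109586, GRCh38 chromosome 4, 173168753 to 173323967, plus strand) was at 27.1, 41.6 and 38.6 CPM in control libraries and at 36.8, 52.1 and 51.5 CPM in siUAP1 libraries, each from 1 to 3. Library 1 was the lowest in both groups, and the groups overlapped because siUAP1 library 1 lay under control libraries 2 and 3. Each siUAP1 library was above the control library of its own number, by 0.44, 0.33 and 0.41 on the log2 scale. GALNT7 rose 1.31-fold within pairs (log2 fold change 0.39, SE 0.0638, edgeR adjusted p = 7.6e-05), and on the groups alone its adjusted p was 0.765. Antisense genes overlap its exons on the opposite strand, and the most abundant of them, AC105285.1, averaged 5.93 CPM over 98 shared bases. Whether counting used strand is not given in the sources used here.

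GALNT1 and GALNT2 are broadly expressed members that act on bare peptide. GALNT2 (ENSG00000143641, GRCh38 chromosome 1, 230057990 to 230282124, plus strand) was at 240.4, 227.1 and 225.7 CPM in control libraries and at 325.5, 292.5 and 277.9 CPM in siUAP1 libraries. The control values lay close together, and every siUAP1 value was higher. GALNT2 rose 1.29-fold within pairs (log2 fold change 0.37, 95% interval 0.27 to 0.46, edgeR adjusted p = 2.59e-06), with pair values of 0.44, 0.36 and 0.30. On the groups alone its log2 fold change was also 0.37, with an edgeR adjusted p of 0.277.

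GALNT1 (ENSG00000141429, GRCh38 chromosome 18, 35581117 to 35711834, plus strand) was at 64.4, 74.5 and 70.3 CPM in control libraries and at 51.3, 57.6 and 50.5 CPM in siUAP1 libraries. All 3 siUAP1 values lay under all 3 control values. GALNT1 was the only member that fell within pairs, to 0.762 of control (log2 fold change -0.39, 95% interval -0.51 to -0.28, edgeR adjusted p = 1.37e-05), with pair values of -0.33, -0.37 and -0.48. On the groups alone the edgeR adjusted p was 0.274. In bulk RNA fewer cells with a transcript and less transcript per cell cannot be told apart, which holds for every change given here. No exon of another annotated gene overlaps the exons of GALNT1.

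GALNT3 and GALNT6 form another subfamily: GALNT3 is known for glycosylating the phosphate hormone FGF23, and GALNT6 for glycosylating fibronectin. GALNT6 (ENSG00000139629, GRCh38 chromosome 12, 51351247 to 51392867, minus strand) was at 88.95, 83.85 and 87.1 CPM in control libraries and at 107.1, 94.1 and 103.2 CPM in siUAP1 libraries. The groups did not overlap, and the smallest gap was between control library 1 and siUAP1 library 2. Within pairs GALNT6 rose 1.17-fold (log2 fold change 0.23, SE 0.0504, edgeR adjusted p = 0.00238), the smallest of the called changes. Without pair 3 the call ended, at a log2 fold change of 0.22 and an edgeR adjusted p of 0.0634. SLC4A8 on the opposite strand shares 392 bases (5.34%) of its exons and averaged 10.3 CPM. GALNT3 (ENSG00000115339) had 1, 4 and 0 counts in control libraries and 1, 2 and 3 in siUAP1 libraries, too few to test or to compare, where 3 counts stand for 0.115 to 0.141 CPM.

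GALNT4 and GALNT12 also act on glycopeptides, and GALNT12 is best known from the colon. GALNT12 (ENSG00000119514, GRCh38 chromosome 9, 98807699 to 98850081, plus strand) was at 11.9, 12.9 and 15.2 CPM in control libraries and at 13.1, 11.8 and 16.3 CPM in siUAP1 libraries. The groups overlapped, pair 2 went down while pairs 1 and 3 went up, and the gene was not called (log2 fold change within pairs 0.04, 95% interval -0.17 to 0.25). GALNT4 (ENSG00000257594), which has a single exon, had 5, 5 and 13 counts in control libraries and 4, 5 and 0 in siUAP1 libraries. It was too low to test, and 93.22% of its exonic bases also belong to the read-through gene POC1B-GALNT4 on the same strand, so its few reads could be split between both.

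GALNT11, which glycosylates NOTCH1 and proteins of the LDL receptor family, was at 44.0, 46.0 and 57.3 CPM in control libraries and at 49.6, 44.8 and 55.2 CPM in siUAP1 libraries (ENSG00000178234, GRCh38 chromosome 7, 152025674 to 152122347, plus strand). Library 3 was the highest in both groups, the groups overlapped, and the pairs did not share a direction. Its log2 fold change within pairs was 0.02, with a 95% interval from -0.10 to 0.15, so a change as large as that of GALNT2 or GALNT7 lay outside the interval. GALNT5 (ENSG00000136542, GRCh38 chromosome 2, 157257598 to 157314211, plus strand) had 16, 22 and 10 counts in control libraries and 36, 27 and 15 in siUAP1 libraries. These few counts left a wide 95% interval, from -0.21 to 1.40 on the log2 scale around 0.59, and the gene was not called (edgeR adjusted p = 0.347). A change of GALNT5 as large as that of GALNT10 lay inside it.

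**Figure D2:**
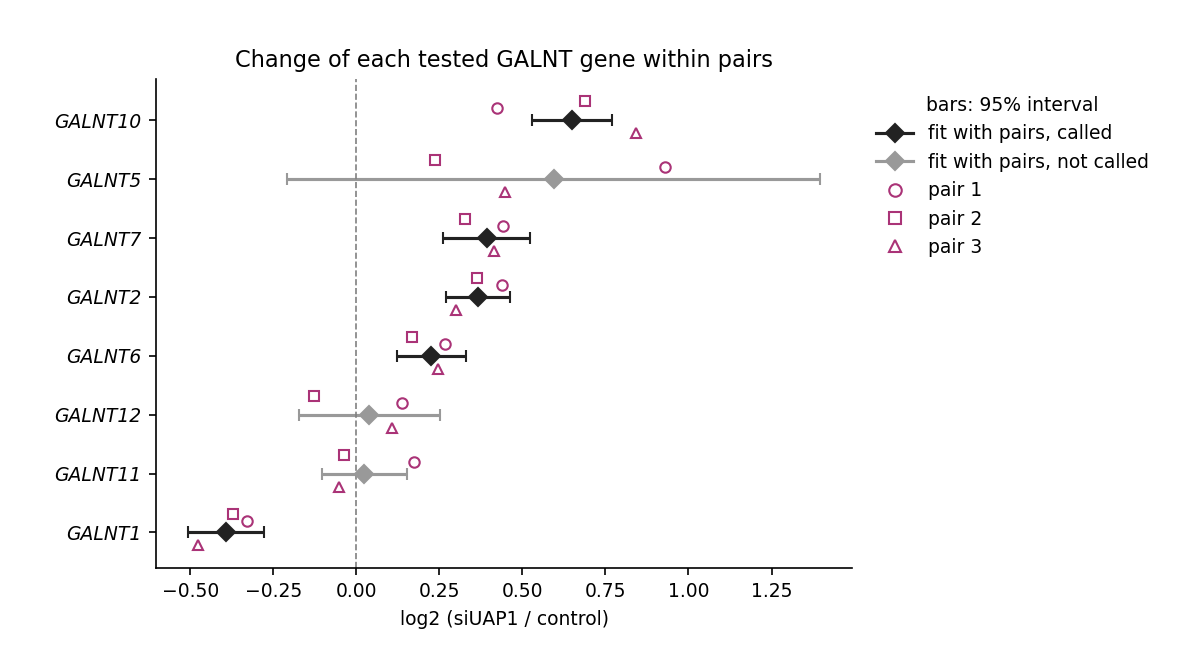
Log2 ratio of siUAP1 to control for the 8 tested GALNT genes, with diamonds and bars for the fit within pairs and its 95% intervals (black where called, grey where not) and open symbols for the 3 single pairs. GALNT10, GALNT7, GALNT2 and GALNT6 lie to the right of 0 in every pair and GALNT1 to the left in every pair, while GALNT11 and GALNT12 lie on both sides.

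Because GALNT1 moved against the other called members, the make-up of the GALNT transcripts was expressed as each gene's share of the summed FPKM of the 10. The sum itself was 83.0, 83.9 and 81.0 FPKM in control libraries and 100.9, 100.3 and 94.7 FPKM in siUAP1 libraries, 1.19 times as high on average and without overlap. GALNT1 held 15.0%, 17.1% and 16.9% of it in control libraries and 9.80%, 11.1% and 10.3% in siUAP1 libraries. This is 5.23, 5.97 and 6.55 percentage points less in pairs 1 to 3. GALNT10 held 17.5%, 16.3% and 11.2% in control libraries and 19.3%, 22.1% and 17.1% in siUAP1 libraries. The share of GALNT10 was higher in siUAP1 in each pair, and the groups overlapped because siUAP1 library 3 lay under control library 1. GALNT2 held 35.8% ± 1.32 of the sum in control libraries and 38.7% ± 2.16 in siUAP1 libraries (SD, n = 3 each).

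GALNT6 rose in level within pairs, yet its share was 14.2% ± 0.640 in control libraries and 13.9% ± 1.06 in siUAP1 libraries (SD, n = 3 each), since the sum was higher too. The ratio of GALNT2 to GALNT1 in FPKM was 2.47, 2.02 and 2.13 in control libraries and 4.20, 3.36 and 3.64 in siUAP1 libraries, 1.69 times as high on average. GALNT10 was at 1.17, 0.955 and 0.665 times the FPKM level of GALNT1 in control libraries and at 1.97, 1.99 and 1.66 times in siUAP1 libraries. Neither ratio overlapped between the groups. These shares and ratios follow from the changes above and were given no test of their own.

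**Figure D3:**
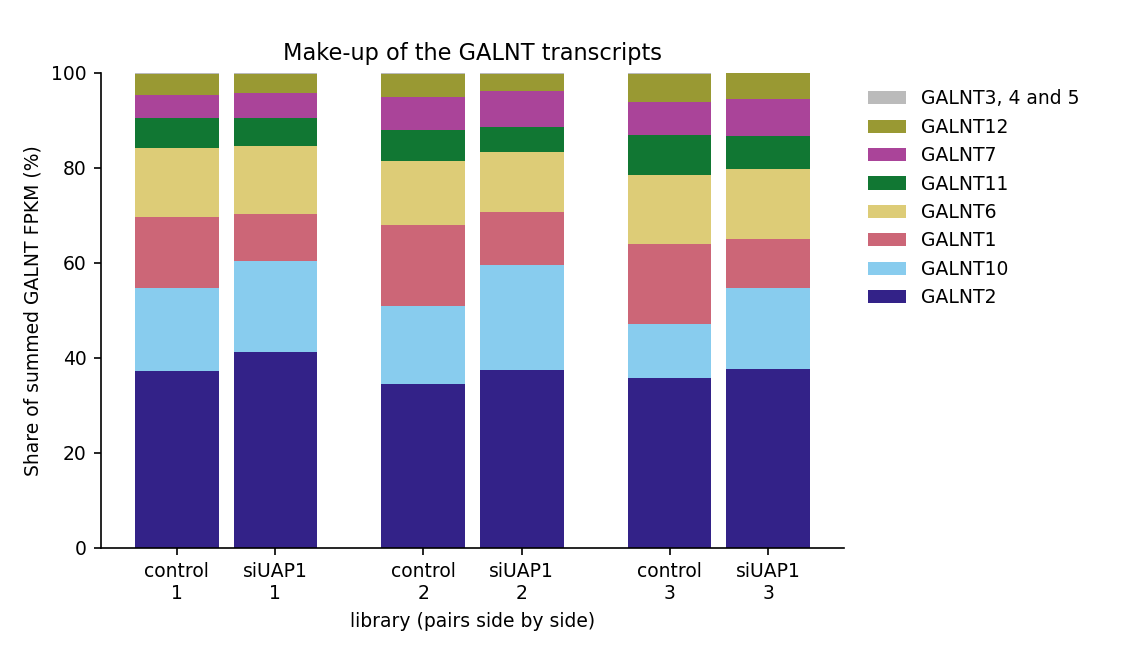
Stacked bars of each GALNT gene's share of the summed FPKM of the 10 genes, in percent, for the 6 libraries with the pairs side by side. The GALNT1 segment takes 15.0% to 17.1% in control libraries and 9.80% to 11.1% in siUAP1 libraries, and GALNT2 is the largest segment in each.

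Of 11 other GALNT family genes in the table, 4 were tested and 0 were called by edgeR in either fit. Over all tested genes 0.108% were called on the groups alone, and within pairs 9.07% rose and 7.14% fell. At an unadjusted p under 0.05 there were 0 of these 4 on the groups alone and 1 within pairs, GALNT15. GALNT15 was at 5.22, 5.58 and 2.79 CPM in control libraries and 10.9, 5.36 and 3.97 CPM in siUAP1 libraries. Its log2 fold change within pairs was 0.51 (SE 0.182, edgeR adjusted p = 0.0543), with siUAP1 library 1 far above the rest. GALNT18 had 0.17 (adjusted p = 0.298), GALNT16 had -0.07 (adjusted p = 0.733) and GALNTL6 had -0.17 (adjusted p = 0.843). GALNT8, GALNT14 and GALNT17 had 0 counts in every library.

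The donor side of the pathway was read from genes for UDP-GalNAc supply and transport, of which 8 are reported here, all tested. Within pairs UAP1 fell, SLC35D1 rose and the other 6 were not called, where 9.07% of all genes rose and 7.14% fell. On the groups alone UAP1 was the only 1 of the 8 called, where 0.108% of all genes were called. SLC35D1, which carries UDP-glucuronic acid and UDP-GalNAc into the endoplasmic reticulum, was at 26.3, 25.2 and 28.1 CPM in control libraries and at 30.7, 32.7 and 32.8 CPM in siUAP1 libraries, without overlap. It rose by 0.28 on the log2 scale (adjusted p = 0.0106).

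Downstream of GALNT enzymes, C1GALT1 adds galactose to make core 1, with the help of its chaperone C1GALT1C1. Of 8 core extension genes 4 were tested, 1 rose within pairs and 0 fell, where 9.07% of all genes rose and 7.14% fell. C1GALT1 was at 75.97, 68.95 and 76.3 CPM in control libraries and at 89.7, 84.7 and 85.7 CPM in siUAP1 libraries, without overlap, and rose by 0.23 on the log2 scale (SE 0.0523, edgeR adjusted p = 0.00243). C1GALT1C1, the highest of the list at 20.5 FPKM in control and 19.7 FPKM in siUAP1 libraries, was not called (log2 fold change -0.05). The list's median of 0.52 rests on GCNT1 and GCNT3, which make branched cores and were under 0.11 FPKM in both groups. These 2 were singled out after their values were seen.

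Sialic acid caps these cores. Of 6 sialyltransferase genes 4 were tested, with a median of 0.22 within pairs. Of these, 2 rose within pairs and 0 fell, where 9.07% of all genes rose and 7.14% fell. ST6GALNAC3 rose by 0.80 on the log2 scale (SE 0.153, edgeR adjusted p = 0.000523) from a mean of 0.579 FPKM in control libraries. ST3GAL2, which sialylates galactose of core 1, rose by 0.41 (SE 0.0691, adjusted p = 0.00011), and ST6GALNAC4, the highest of the list at 12.6 FPKM in control libraries, was not called at 0.02. In neither of these lists was a gene called on the groups alone.

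Among 32 genes for mucins and other proteins that carry GalNAc O-glycans, 14 were tested, with a median of 0.07 within pairs. Of these, 4 rose within pairs and 0 fell, where 9.07% of all genes rose and 7.14% fell. In CPM the groups did not overlap for 2 of the 14 tested, both higher in siUAP1 libraries, where 6.74% of all genes were so. Of the 4 that rose, FN1, LRP1 and PODXL overlapped and DAG1 did not. MUC1 was the only tested gene of the 14 named as mucins (MUC genes), at 0.432 FPKM in control libraries, and it was not called. Fibronectin (FN1), the GALNT6 substrate, was the highest of the list at 114.4 FPKM in control and 132.0 FPKM in siUAP1 libraries and rose by 0.19 on the log2 scale (edgeR adjusted p = 0.00883). LRP1, of the LDL receptor family, rose by 0.24 (adjusted p = 0.00088), podocalyxin (PODXL), a sialomucin, by 0.25 (adjusted p = 0.00238) and dystroglycan (DAG1) by 0.25 (adjusted p = 0.00172). All 4 missed the threshold on the groups alone.

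**Figure D4:**
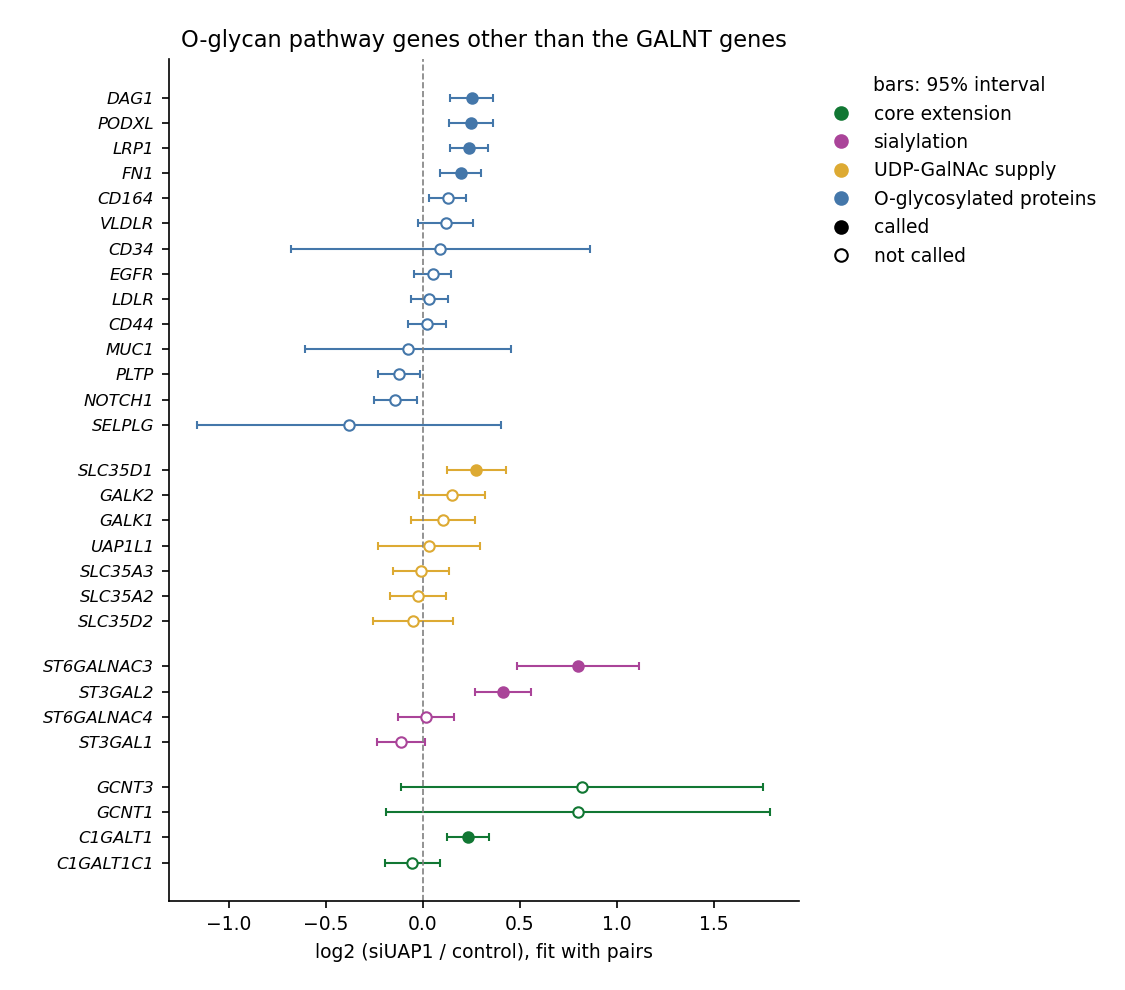
Log2 ratio of siUAP1 to control within pairs, with 95% intervals, for tested genes of the 4 pathway lists, coloured by list, with filled symbols for called genes and UAP1 left out for its scale. C1GALT1, ST3GAL2, ST6GALNAC3, SLC35D1, FN1, LRP1, PODXL and DAG1 are filled to the right of 0, and no gene shown is filled to the left.

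Some markers of the labelled tissue and of fibroblasts rose within pairs beside these changes, and no gene of the marker lists was called on the groups alone. The summed level of the 12 serous ovarian markers was 185.4 to 199.6 FPKM in control and 252.9 to 300.4 FPKM in siUAP1 libraries. Nearly all of it was KRT7 and KRT18, at means of 81.7 and 111.4 FPKM in control libraries. The other markers of the list averaged at most 0.588 FPKM there. Of 6 tested, 3 rose within pairs (KRT7, KRT18 and CLDN4), where 9.07% of all genes rose. WT1 was not called (log2 fold change -0.20). The 5 fibroblast markers summed to 82.28 to 152.8 FPKM in control and 140.9 to 245.1 FPKM in siUAP1 libraries, which overlapped. Most of that sum was COL1A1, at a mean of 103.4 FPKM in control libraries. Of 3 fibroblast markers tested, COL1A1 and PDGFRB rose within pairs and PDGFRA was not called (log2 fold change -0.14). DCN was at 0 throughout. The 5 endothelial markers summed to 21.67 to 27.97 FPKM in control and 21.93 to 28.31 FPKM in siUAP1 libraries. Nearly all of that was CDH5, at a mean of 23.7 FPKM in control libraries, and none of the 3 tested was called. The 5 leukocyte markers summed to at most 0.250 FPKM in control and 0.446 FPKM in siUAP1 libraries. None of them was tested, and CD3E was at 0 in every library. The part of these differences in the GALNT changes was not tested.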

How the data were processed

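The 6 RNA-seq libraries were grouped by their titles. The authors deposited raw counts per gene and FPKM for 58735 genes. GRCh38.p12 and DESeq2 are named in the submitters' processing notes. The aligner and counter, and any use of strand, were not given in the sources used here. Coordinates are those of the deposited table, and 58724 genes matched GENCODE release 29. No 2 replicates of a group agreed within counting noise (chi-square over degrees of freedom 23.92 to 41.29).

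Counts were fitted with edgeR 4.0.16 in R 4.3.3 (quasi-likelihood test, TMM scaling, filterByExpr with minimum count 10, group only, Benjamini-Hochberg adjustment over 15768 genes, threshold 0.05). The alternative with the replicate number as a block compared libraries within pairs. The library names share a code within each replicate number, and the labels do not give its meaning. The deviations of same-numbered libraries from their group means correlated at 0.552, 0.454 and 0.584, all over the limit of 0.1 set for pairing, and those of different numbers at -0.434 to -0.0893. Values of single pairs are differences of log2 CPM with a prior count of 2. FPKM served for levels and shares and, as log2(FPKM + 1) or log2(FPKM + 0.1) in limma 3.58.1, as an alternative, as were DESeq2 1.42.0, limma-voom, RLE scaling, library totals, other low-value filters and leaving out libraries. The fit was tested on simulated counts.

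All 10 members are named, with UAP1, tested relatives, and each list's called genes and its highest by mean FPKM. Members and lists were chosen with earlier results of these data known. Some genes of these lists are not reported here.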

Additional observations from a re-analysis of the deposited data

How the results depend on the processing

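Direction was kept for GALNT1, GALNT2, GALNT6, GALNT7 and GALNT10 in all 16 alternatives to the fit on groups and in all 9 alternatives to the fit with the replicate block. For the fit on groups, 0 members and 17 genes in all were called. The replicate block gave 5 members and 2556 genes, and it changed no call of a member other than these 5. Dropping the low count filter gave 1 member (GALNT10) and 273 genes, DESeq2 1 member and 165 genes, and limma on log2(FPKM + 1), on log2(FPKM + 0.1) and on log2(FPKM + 1) without a filter gave 0 members and 2, 3 and 1 genes. Leaving out 1 library at a time gave 0 members and 1 to 3 genes. With the replicate block, members called ranged from 4 to 5, and genes called were 1195 without pair 3, 1311 with DESeq2 and 944 with limma on log2(FPKM + 1). GALNT6 lost its call without pair 3. The log2 fold change of GALNT11 ranged from -0.05515 to 0.1459 and that of GALNT12 from -0.09577 to 0.1442 when 1 library was left out of the fit on groups, and with the replicate block they were -0.04571 and -0.005836 without pair 1. The cause of these shifts was not tested. Low counts limit GALNT5, which had no value under the mean CPM or mean FPKM filters or an adjusted p from DESeq2 within pairs, and GALNT3 and GALNT4 were below testing. The adjusted p of DESeq2 was missing for 43187 genes on the groups and 46624 within pairs.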
